A study of Homo sapiens with 15 samples.

Results

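AP-1 is a transcription factor built from pairs of FOS and JUN family proteins, and 8 genes that encode its subunits are described here: FOS (ENSG00000170345), FOSB (ENSG00000125740), FOSL1 (ENSG00000175592), FOSL2 (ENSG00000075426), JUN (ENSG00000177606), JUNB (ENSG00000171223), JUND (ENSG00000130522) and the related ATF3 (ENSG00000162772). They were chosen by symbol, each has 1 row among the 57905 genes of the expression table, and all 8 were among the 17214 genes tested. RNA was sequenced from SW480, a human colorectal cancer line labelled as intestinal epithelial cells, in 4 groups of 3 libraries. In the PINT shRNA1+LPS group, cells carried a lentiviral short hairpin RNA against the long non-coding RNA PINT and received lipopolysaccharide (LPS, from the outer membrane of Gram-negative bacteria) at 1 µg/ml for 4 h. In the PINT shRNA1 group, cells carried that hairpin and received PBS. In the LPS group, wild-type cells received LPS at the same dose and time, and in the control group wild-type cells received PBS. No non-targeting hairpin group is named in the labels, so hairpin and vector effects cannot be told apart. Whether replicates were separate cultures is not said either, and the p-values then reflect the spread among these libraries, which may be technical.

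AP-1 proteins carry a basic leucine zipper: the zipper joins a pair of subunits, and the basic part binds DNA. JUN proteins pair with each other or with FOS proteins, whereas FOS proteins need a partner, and FOSL1 and FOSL2 lack the strong activation domain of FOS and FOSB. FOS, JUNB and ATF3 are immediate-early genes in many cells, switched on for a short time by growth factors, stress or inflammatory signals through MAP kinases, while JUND is usually expressed steadily. In intestinal epithelium and in colorectal cancer AP-1 acts downstream of RAS and MAP kinase signalling.

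Expression is given as FPKM, fragments scaled by transcript length and by the fragments mapped in a library, so that levels can be compared between genes. LINC-PINT (ENSG00000231721), the gene that the hairpin is directed at, went against the labels. It was at 3.54, 4.00 and 4.08 FPKM in the libraries labelled PINT shRNA1+LPS, against 2.40, 2.82 and 1.91 FPKM in LPS libraries. It was at 4.55, 5.26 and 5.34 FPKM in the libraries labelled PINT shRNA1, against 2.88, 2.56 and 2.51 FPKM in control libraries. All 6 libraries with the hairpin label were thus above those without it, by 0.61 ± 0.12 (log2 fold change ± SE, limma adjusted p = 0.00284) with LPS and by 0.81 ± 0.12 (limma adjusted p = 0.000592) without it, and PINT shRNA1 is used below only as the name of the libraries labelled so. Total read counts are unknown from FPKM; depth relative to the first control library was 1.3 to 1.51 in PINT shRNA1+LPS, 0.914 to 1.05 in PINT shRNA1, 0.848 to 0.859 in LPS and 0.809 to 1 in control libraries. The 7 epithelial markers summed to 1576 to 1644 FPKM in PINT shRNA1+LPS, 1477 to 1579 FPKM in PINT shRNA1, 2404 to 2448 FPKM in LPS and 2372 to 2707 FPKM in control libraries. Leukocyte markers summed to at most 4.99 FPKM in any library, with PTPRC at 0 to 0.0713 FPKM, and the 7 fibroblast and endothelial markers in the table to at most 1.499 FPKM, with DCN at 0 to 0.0216 FPKM.

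Stretches of the members' own promoters are shown first because AP-1 and the related CREB and ATF proteins are known to bind short sequences of this kind, including in the promoters of AP-1 genes. RefSeq promoters of GRCh38.p14 (250 bases before to 50 after each gene's start) matched 7 of the 8 members with 8 entries, ATF3 having 2. FOSL1 had none. They were searched on both strands for TGANTCA (the classical AP-1 site), TGACNTCA (a site for JUN with ATF or CREB partners) and TGACG (the CREB and ATF core, which lies within TGACNTCA wherever N is G), and for the CArG box of serum response factor. The lines below read 5′ to 3′ on the gene's strand, with the match in capitals and 25 bases on either side. The first 3 hold TGACNTCA and the other 3 TGACG.
JUN, chr1:58784082-58784139, minus strand: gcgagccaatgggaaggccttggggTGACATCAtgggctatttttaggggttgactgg
JUND, chr19:18281790-18281847, minus strand: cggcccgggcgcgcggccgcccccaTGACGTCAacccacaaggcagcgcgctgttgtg
ATF3, chr1:212565259-212565316, plus strand: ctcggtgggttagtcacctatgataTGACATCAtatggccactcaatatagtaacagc
JUNB, chr19:12791324-12791378, plus strand: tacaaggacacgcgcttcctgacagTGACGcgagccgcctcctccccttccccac
FOS, chr14:75278739-75278793, plus strand: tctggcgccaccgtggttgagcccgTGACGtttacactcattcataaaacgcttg
FOSL2, chr2:28392767-28392821, plus strand: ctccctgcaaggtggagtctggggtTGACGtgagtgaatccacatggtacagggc

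JUN and the first ATF3 entry carried the same 8 letters, and the match in JUND also holds TGACG on each strand. The second ATF3 entry held no match to any of the sequences searched. The TGACNTCA match began 67 bases before the start in JUN, 200 bases before it in JUND and 123 bases before it in the first ATF3 entry, and 7.72% of all 35116 promoters of 300 bases in the table held one. TGACG was found in 6 members, namely FOS, FOSB, FOSL2, JUN, JUNB and JUND, against 24.6% of all promoters, and 2 of the 3 matches in JUND lie within its TGACNTCA match. TGANTCA was found in FOSL2 alone, beginning 4 bases after the start, against 7.71% of all promoters. The CArG box was found in none of the 8 entries, against 1.29% of all promoters. Only these 300 bases were searched, so a CArG box further upstream would not be seen. These matches describe the letters in the windows, and no binding was measured here.

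FOSL1, which encodes FRA-1, was the most abundant of the 8 genes, and FOSB, which encodes a close relative of FOS, the least abundant. FOSL1 was at 29.9, 31.4 and 37.0 FPKM in PINT shRNA1+LPS, 43.4, 34.4 and 39.7 FPKM in PINT shRNA1, 37.4, 46.5 and 35.2 FPKM in LPS and 30.7, 31.5 and 30.7 FPKM in control libraries. The 3 control libraries lie within 1 FPKM of each other, below every LPS library and every PINT shRNA1 library. Across the 12 libraries FOSL1 averaged 35.6 FPKM, above 89.7% of the genes tested. FOSB was at 1.05, 0.915 and 0.943 FPKM in PINT shRNA1+LPS, 1.16, 0.888 and 1.23 FPKM in PINT shRNA1, 1.05, 1.35 and 1.46 FPKM in LPS and 0.898, 1.39 and 1.20 FPKM in control libraries. Its groups overlapped in every comparison but 1, in which the PINT shRNA1+LPS libraries lie just below the LPS libraries.

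FOSL2, which encodes FRA-2, was at 17.0, 15.7 and 14.7 FPKM in PINT shRNA1+LPS, 16.4, 14.6 and 16.0 FPKM in PINT shRNA1, 13.7, 12.5 and 11.8 FPKM in LPS and 13.3, 12.8 and 13.7 FPKM in control libraries. All 6 libraries with the hairpin were above all 6 without it. How many of all genes separate in this way was not counted. Groups did not overlap for 41.3% of all genes in PINT shRNA1 against control. The same held for 45.7% in PINT shRNA1+LPS against LPS. FOS, the founding member of the family, was at 8.27, 8.53 and 8.92 FPKM in PINT shRNA1+LPS, 8.92, 8.21 and 10.1 FPKM in PINT shRNA1, 5.03, 4.92 and 7.58 FPKM in LPS and 8.04, 8.68 and 5.85 FPKM in control libraries. The libraries without the hairpin were spread widely, with the third LPS library high and the third control library low for their groups, while PINT shRNA1+LPS libraries were close together.

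JUND, the subunit that is usually steady, was at 19.1, 19.8 and 17.2 FPKM in PINT shRNA1+LPS, 15.4, 14.95 and 16.3 FPKM in PINT shRNA1, 19.3, 16.5 and 15.1 FPKM in LPS and 15.1, 15.5 and 13.8 FPKM in control libraries. JUNB, which can hold back JUN activity when paired with it, was at 14.3, 16.0 and 15.9 FPKM in PINT shRNA1+LPS, 11.1, 11.1 and 13.3 FPKM in PINT shRNA1, 13.8, 13.99 and 13.0 FPKM in LPS and 11.4, 12.1 and 10.3 FPKM in control libraries. JUNB was higher in every LPS library than in every library given PBS in the same hairpin state, whereas JUND was so only among libraries with the hairpin. JUN, which encodes c-Jun, was at 12.8, 12.7 and 11.9 FPKM in PINT shRNA1+LPS, 10.9, 10.9 and 12.2 FPKM in PINT shRNA1, 9.84, 10.7 and 9.63 FPKM in LPS and 9.13, 10.3 and 8.73 FPKM in control libraries. As with FOSL2, all 6 JUN values with the hairpin were above all 6 without it.

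ATF3, a stress-induced factor that pairs with JUN proteins and often represses, was at 4.56, 4.55 and 4.61 FPKM in PINT shRNA1+LPS, 3.66, 1.24 and 3.49 FPKM in PINT shRNA1, 4.97, 5.05 and 5.29 FPKM in LPS and 2.65, 3.22 and 3.16 FPKM in control libraries. Both LPS groups were tight and lay above all libraries given PBS. The second PINT shRNA1 library stood far below the other two, and the highest ATF3 value of all 12 was 4.27 times the lowest, against 1.43 to 2.06 times in the other members.

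**Figure D1:**
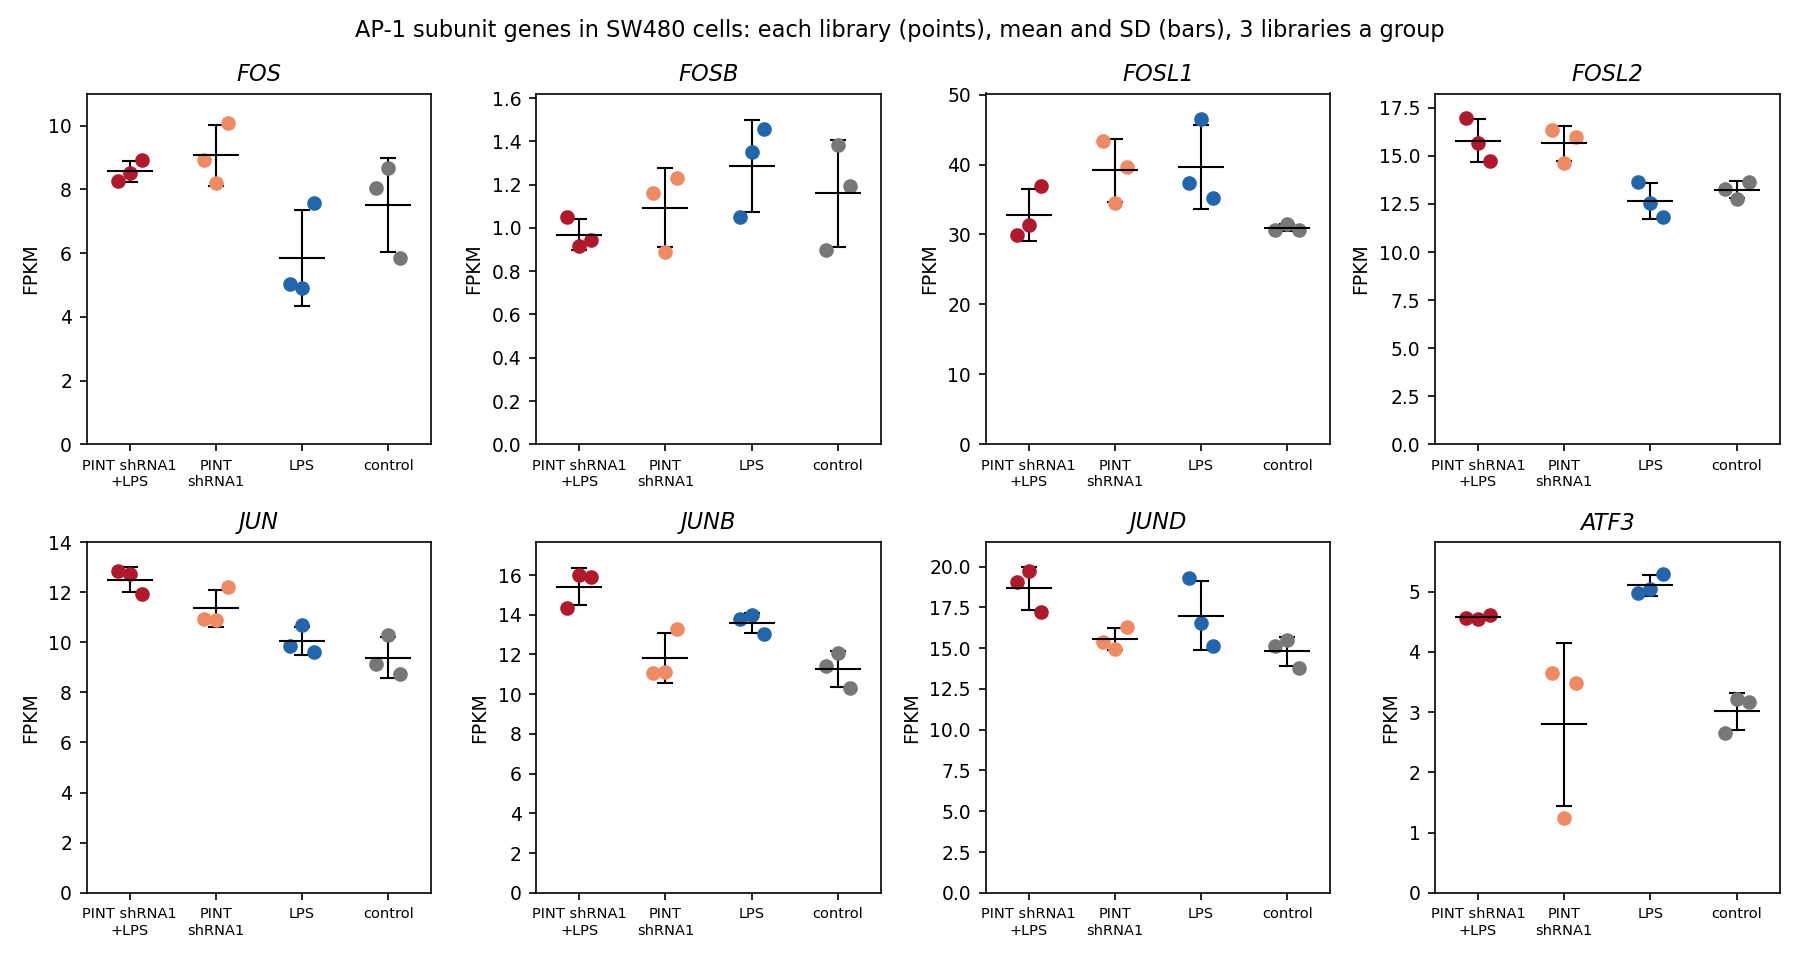
FPKM of each AP-1 gene in PINT shRNA1+LPS, PINT shRNA1, LPS and control; points are the 3 libraries of a group, and bars the mean and SD, with each axis starting at 0. FOSL2 and JUN are higher in all 6 libraries with the hairpin than in all 6 without it, and ATF3 is highest in the LPS libraries, at 4.97 to 5.29 FPKM. Over all genes, the hairpin comparisons gave groups that do not overlap for 41.3% without LPS and 45.7% with it.

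The order of levels was FOSL1, JUND, FOSL2, JUNB, JUN, FOS, ATF3 and FOSB in control libraries, where no pair of neighbours overlapped. FOSL1 led and FOSB came last in all 4 groups. In PINT shRNA1+LPS libraries FOSL2 and JUNB overlapped, in PINT shRNA1 libraries FOSL2 overlapped JUND and JUNB overlapped JUN, and in LPS libraries JUNB overlapped FOSL2 and FOS overlapped ATF3.

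Within the FOS family FOSL1 made up most of the summed FPKM. Its share was 56.3 ± 3.47% in PINT shRNA1+LPS and 60.2 ± 1.67% in PINT shRNA1 libraries (SD, n = 3 each), and 66.5 ± 4.29% in LPS and 58.6 ± 0.996% in control libraries (SD, n = 3 each). The FOSL1 share was thus above the control range in every LPS library without the hairpin, at 62.8 to 71.2% against 58.0 to 59.7%, while the ranges with the hairpin overlapped. FOS made up 14.8 ± 0.303% in PINT shRNA1+LPS, 9.95 ± 3.15% in LPS and 14.2 ± 2.44% in control libraries (SD, n = 3 each). The JUN family was more even, with JUND at 40.1 to 41.8%, JUNB at 30.5 to 33.5% and JUN at 24.8 to 29.3% as group means. The 3 JUN genes summed to 45.1 to 48.5 FPKM in PINT shRNA1+LPS libraries, against 37.0 to 41.8 FPKM in PINT shRNA1 libraries. The same sum was 37.8 to 42.9 FPKM in LPS libraries, against 32.8 to 37.9 FPKM in control libraries, ranges that overlap slightly.

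**Figure D2:**
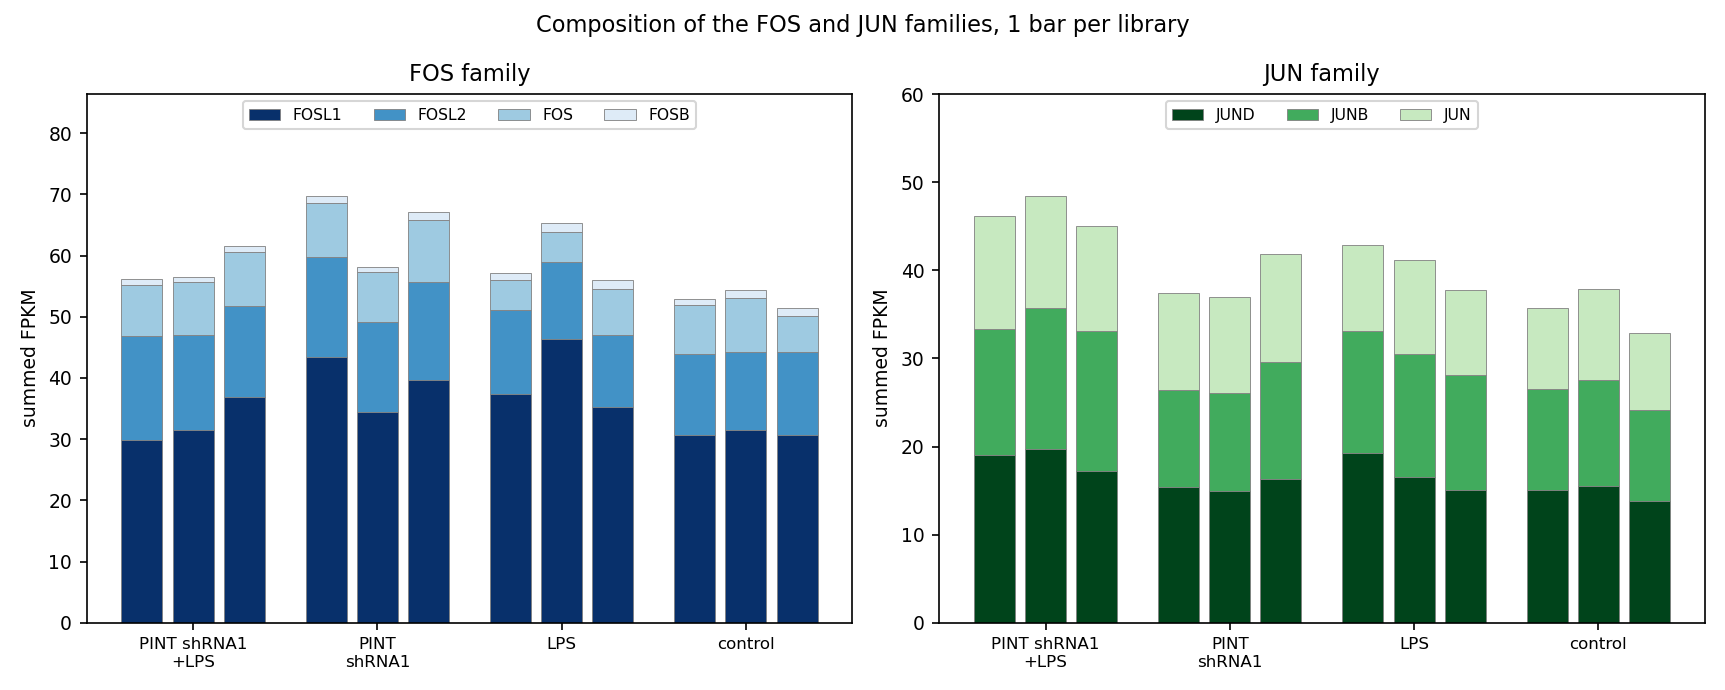
Summed FPKM of the FOS family and of the JUN family, with 1 stacked bar for each of the 3 libraries of PINT shRNA1+LPS, PINT shRNA1, LPS and control; each colour is a gene. FOSL1 is the largest part of the FOS family in every library, with group means from 56.3% in PINT shRNA1+LPS to 66.5% in LPS, and the JUN family sums highest in PINT shRNA1+LPS libraries.

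The first question of the design was what LPS does to these genes in cells without the hairpin. FOSL1, JUNB and ATF3 were higher in all 3 LPS libraries than in all 3 control libraries, and FOS had the lowest estimate, but no member passed the test. ATF3 averaged 5.10 ± 0.168 FPKM in LPS and 3.01 ± 0.313 FPKM in control libraries (SD, n = 3 each), a log2 fold change of 0.68 ± 0.26 (SE, limma adjusted p = 0.218). JUNB averaged 13.6 ± 0.513 FPKM in LPS and 11.3 ± 0.901 FPKM in control libraries (SD, n = 3 each), a log2 fold change of 0.26 ± 0.08 (SE, limma adjusted p = 0.134). FOSL1 averaged 39.7 ± 5.97 FPKM in LPS and 31.0 ± 0.507 FPKM in control libraries (SD, n = 3 each), a log2 fold change of 0.34 ± 0.11 (SE, limma adjusted p = 0.15). For each of these 3 genes the exact two-sided permutation test gave p = 0.1, the smallest that 3 libraries against 3 allow. FOS had a log2 fold change of -0.35 ± 0.17 (SE, limma adjusted p = 0.325), with a 95% interval of -0.71 to 0.02. Without the third LPS library it was -0.53.

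Across all genes, LPS against control gave calls for 2.76% (limma, adjusted p under 0.05) and groups that do not overlap for 19.2%. Of the 8 members 0 were called, and 3 had groups that do not overlap. An unadjusted p under 0.05 was found for 3 members, against 16.8% of all genes. Their median log2 fold change was 0.15, against -0.04 over all genes tested. For the other 4 members the 95% intervals on the log2 scale were -0.22 to 0.09 in FOSL2, -0.07 to 0.26 in JUN, -0.01 to 0.38 in JUND and -0.20 to 0.42 in FOSB. ATF3 was the member whose call depended most on the libraries that set the shared spread. In a fit of the LPS and control libraries alone its adjusted p was 0.0399 (limma), and without the second PINT shRNA1 library, which this comparison does not use other than for the spread, it was 0.00162 (limma) at the same fold change.

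In cells with the hairpin, LPS was compared between PINT shRNA1+LPS and PINT shRNA1 libraries. JUNB, JUND and ATF3 were higher in all 3 PINT shRNA1+LPS libraries, and FOSL1 had a lower mean. JUNB averaged 15.4 ± 0.941 FPKM in PINT shRNA1+LPS and 11.8 ± 1.28 FPKM in PINT shRNA1 libraries (SD, n = 3 each), a log2 fold change of 0.37 ± 0.08 (SE, limma adjusted p = 0.172). JUND averaged 18.7 ± 1.31 FPKM in PINT shRNA1+LPS and 15.5 ± 0.681 FPKM in PINT shRNA1 libraries (SD, n = 3 each), a log2 fold change of 0.26 ± 0.09 (SE, limma adjusted p = 0.433). ATF3 averaged 4.57 ± 0.0292 FPKM in PINT shRNA1+LPS and 2.80 ± 1.35 FPKM in PINT shRNA1 libraries (SD, n = 3 each), a log2 fold change of 0.73 ± 0.26 (SE, limma adjusted p = 0.455). Without the second PINT shRNA1 library this ATF3 value was 0.32 ± 0.09 (SE, limma adjusted p = 0.427). FOSL1 had a log2 fold change of -0.25 ± 0.11 (SE, limma adjusted p = 0.562), with overlapping groups.

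Of the 8 members 0 were called with LPS in the presence of the hairpin by limma, against 0.186% of all genes, while 4 had an unadjusted p under 0.05, against 8.76% of all genes. The groups did not overlap for 3 members, against 19.3% of all genes. The members' median log2 fold change was 0.07, against -0.04 over all genes tested.

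The LPS responses with and without the hairpin were set against each other in the interaction, which is the LPS fold change with the hairpin minus that without it. FOSL1 differed most among the members: its interaction was -0.60 ± 0.16 (log2, SE), with a 95% interval of -0.95 to -0.24. Its limma adjusted p was 0.328 and its unadjusted p 0.00352. Mean FOSL1 was thus higher with LPS in wild-type cells and lower with LPS in cells with the hairpin, but the difference did not pass the test over all genes. By limma 0 members were called, against 0.128% of all genes, and FOSL1 was the 1 member with an unadjusted p under 0.05, against 7.74% of all genes. The other 7 interactions ranged from -0.22 in FOSB to 0.27 in FOS, and ATF3 had 0.05 ± 0.37 (SE, limma adjusted p = 0.981). Without the second PINT shRNA1 library the ATF3 interaction was -0.36 ± 0.12 (SE, limma adjusted p = 0.561). With single libraries left out, the FOS interaction lay between 0.17, without the second control library, and 0.46, without the third LPS library. The FOSB interaction was -0.11 without the first control library.

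The LPS response was also averaged over both hairpin states, a comparison added after the data were seen. JUNB rose, by 0.32 ± 0.06 on the log2 scale (SE, limma adjusted p = 0.0156), and it was higher in 6 of 6 LPS libraries than in the libraries given PBS in their hairpin state. It was the 1 member called, against 2.98% of all genes called and 1.61% called higher. ATF3 had an averaged log2 fold change of 0.70 ± 0.18 (SE, limma adjusted p = 0.0735) and JUND one of 0.22 ± 0.06 (SE, limma adjusted p = 0.0883). ATF3 was called without the second PINT shRNA1 library, at 0.50 ± 0.06 (SE, limma adjusted p = 0.0019), and JUND without the third LPS library, at 0.26 ± 0.06 (SE, limma adjusted p = 0.0494). After median scaling of the libraries both passed, with limma adjusted p = 0.0496 for ATF3 and 0.0312 for JUND. JUNB shares its locus with HOOK2 on the opposite strand, and since the strand setting of the counting is not given in the sources used here, reads of the pair cannot be told apart. HOOK2 itself had an averaged log2 fold change of -0.05 with LPS (limma adjusted p = 0.668).

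**Figure D3:**
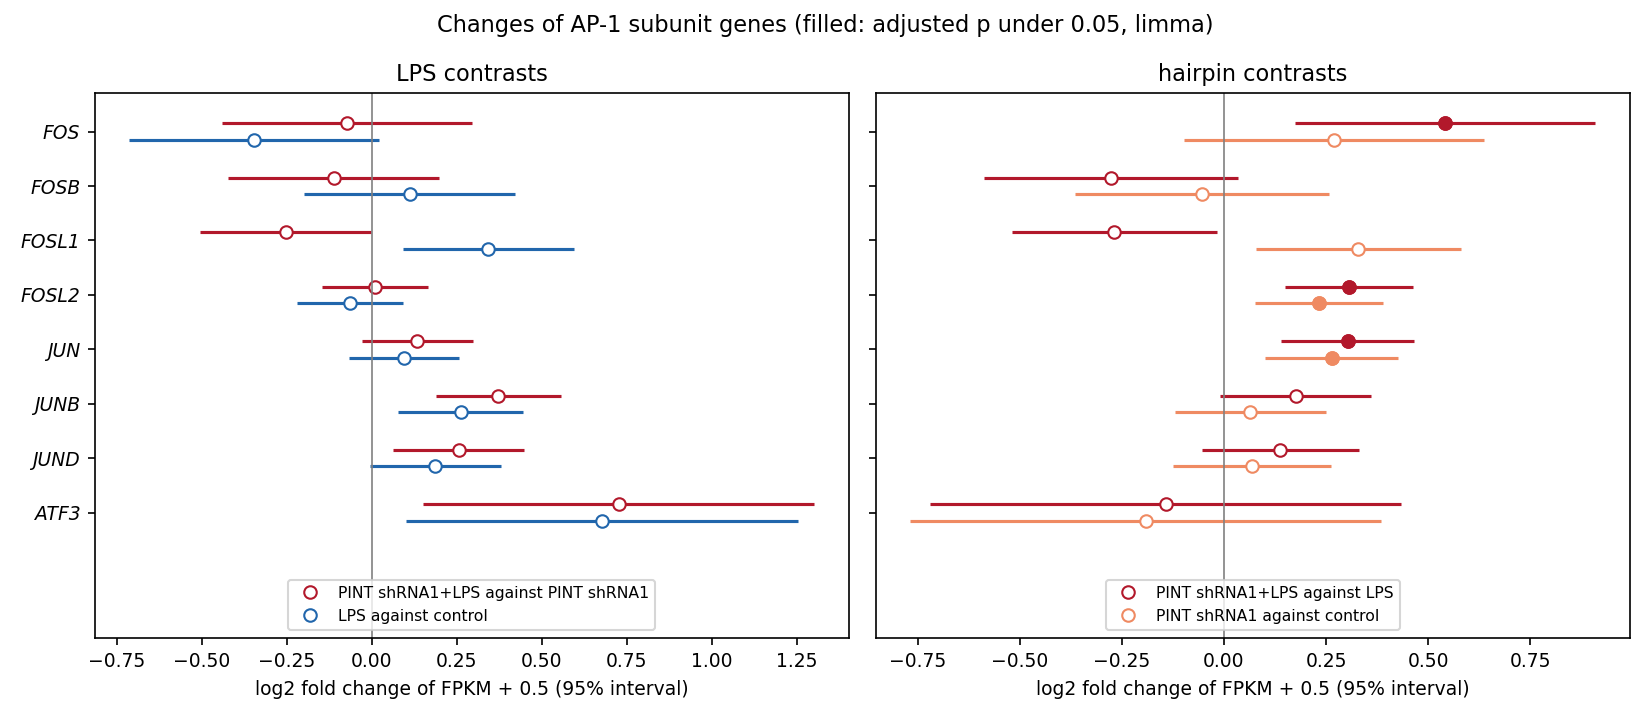
Log2 fold change of FPKM + 0.5 with its 95% interval for each AP-1 gene, with LPS in the presence and absence of the hairpin and with the hairpin in the presence and absence of LPS. FOSL1 lies below 0 for LPS with the hairpin (-0.25) and above 0 for LPS without it (0.34), and FOSL2 and JUN lie above 0 in both hairpin comparisons.

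The next question was how the members differ between cells with and without the hairpin. Without LPS, FOSL2 and JUN rose in the libraries labelled PINT shRNA1. JUN averaged 11.4 ± 0.751 FPKM in PINT shRNA1 and 9.38 ± 0.812 FPKM in control libraries (SD, n = 3 each), a log2 fold change of 0.26 ± 0.07 (SE, limma adjusted p = 0.0223). FOSL2 averaged 15.7 ± 0.909 FPKM in PINT shRNA1 and 13.2 ± 0.437 FPKM in control libraries (SD, n = 3 each), a log2 fold change of 0.23 ± 0.07 (SE, limma adjusted p = 0.0327). FOSL1 averaged 39.2 ± 4.49 FPKM in PINT shRNA1 and 31.0 ± 0.507 FPKM in control libraries (SD, n = 3 each), a log2 fold change of 0.33 ± 0.11 (SE, limma adjusted p = 0.0531). The exact permutation p was 0.1 for each of these 3 genes, which did not overlap between the groups. FOSL2 shares its locus with FLJ31356 on the opposite strand and AC104695.3 on the same strand, whose reads may not be separated from its own. As these are bulk samples, a change in the mix of cells and a change in RNA per cell cannot be told apart.

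Of the 8 members 2 were called in PINT shRNA1 against control, both higher, while 27.3% of all genes were called and 16.9% called higher. The groups did not overlap for 3 of the 8 members, against 41.3% of all genes, so both the share called and the share without overlap lie near the background. Their median log2 fold change was 0.15, against 0.06 over all genes tested. JUNB, JUND, FOSB and ATF3 had log2 fold changes from -0.19 to 0.07 and were not called, and FOS had 0.27 ± 0.17 (SE, limma adjusted p = 0.267), which was 0.11 without the third control library. ATF3 had the lowest value, -0.19 ± 0.26 (SE), which became 0.22 ± 0.09 (SE, limma adjusted p = 0.104) without the second PINT shRNA1 library.

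Both calls changed with single libraries. JUN was no longer called without the first control library (limma adjusted p = 0.0641), the third control library (0.0767) or the third PINT shRNA1 library (0.0823), or in a fit of the PINT shRNA1 and control libraries alone (0.0703). FOSL2 was no longer called without the first control library (limma adjusted p = 0.0681), the second control library (0.0932), the first PINT shRNA1 library (0.106) or the third PINT shRNA1 library (0.0907). FOSL2 also lost its call after median scaling (limma adjusted p = 0.0738), after quantile normalization (0.0532) and with no filter on low values (0.0613). FOSL1 gained one without the second LPS library (limma adjusted p = 0.0254), the third LPS library (0.0466), the second PINT shRNA1 library (0.0302) or the third PINT shRNA1+LPS library (0.0449). It was also called in a fit of the PINT shRNA1 and control libraries alone (limma adjusted p = 0.0366), after rescaling to a common total (0.0369) and with a filter of 1 FPKM (0.0497).

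With LPS given to both groups, FOS, FOSL2 and JUN rose in the libraries labelled PINT shRNA1+LPS over those labelled LPS. FOSL2 averaged 15.8 ± 1.12 FPKM in PINT shRNA1+LPS and 12.7 ± 0.935 FPKM in LPS libraries (SD, n = 3 each), a log2 fold change of 0.31 ± 0.07 (SE, limma adjusted p = 0.0081). JUN averaged 12.5 ± 0.492 FPKM in PINT shRNA1+LPS and 10.0 ± 0.552 FPKM in LPS libraries (SD, n = 3 each), a log2 fold change of 0.30 ± 0.07 (SE, limma adjusted p = 0.0105). FOS averaged 8.57 ± 0.326 FPKM in PINT shRNA1+LPS and 5.84 ± 1.503 FPKM in LPS libraries (SD, n = 3 each), a log2 fold change of 0.54 ± 0.17 (SE, limma adjusted p = 0.0317). FOSL2 and JUN kept their calls without any single library, with limma adjusted p of at most 0.0377 and 0.0417 over all alternatives run. FOS lost its call without the first or the second LPS library (limma adjusted p = 0.101 and 0.107) and without any 1 of the PINT shRNA1+LPS libraries (in order, 0.0646, 0.0747 and 0.0878), and also with no filter on low values (0.0813).

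Of the 8 members 3 were called in PINT shRNA1+LPS against LPS, all higher, while 29.2% of all genes were called and 17.7% called higher. The groups did not overlap for 6 of the 8 members, against 45.7% of all genes. These 6 were FOS, FOSL2, JUN and JUNB, which were higher, and FOSB and ATF3, which were lower. FOSB is counted by a very small margin, as the first library of each group was at 1.05 FPKM when rounded. JUNB had a log2 fold change of 0.18 ± 0.08 (SE, limma adjusted p = 0.143), FOSB one of -0.28 ± 0.14 (SE, limma adjusted p = 0.169) and ATF3 one of -0.14 ± 0.26 (SE, limma adjusted p = 0.726). FOSL1 had -0.27 ± 0.11 (SE, limma adjusted p = 0.102) with overlapping groups, and -0.15 without the second LPS library. The members' median was 0.16, against 0.05 over all genes tested.

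Averaged with and without LPS, a comparison added after the data were seen, the hairpin libraries were higher in JUN by 0.28 ± 0.05, in FOSL2 by 0.27 ± 0.05 and in FOS by 0.41 ± 0.12 (log2, SE), with limma adjusted p of 0.0013, 0.00141 and 0.0173. These 3 of the 8 members were called, all higher, against 42.0% of all genes called and 26.1% called higher. All 3 kept their calls in each of the 22 alternatives run, FOS with limma adjusted p of up to 0.0457. FOSL1 had 0.03 ± 0.08 (SE, limma adjusted p = 0.791), the mean of a higher value without LPS and a lower one with it. JUND was called only without the first LPS library (limma adjusted p = 0.0428).

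Other features of the libraries moved with the hairpin. Of the 7 epithelial markers 4 were lower in PINT shRNA1 than in control libraries and 5 lower in PINT shRNA1+LPS than in LPS libraries (limma, adjusted p under 0.05), with medians of -0.43 and -0.49 on the log2 scale. Of the 3 leukocyte markers tested (CD68, LYZ and ITGAM), CD68 was higher in both comparisons (0.64 ± 0.12 and 0.63 ± 0.12, log2, SE), at 1.45 ± 0.129 FPKM in PINT shRNA1 and 0.751 ± 0.0678 FPKM in control libraries (SD, n = 3 each). LYZ was not called in either comparison but fell by 0.44 ± 0.15 averaged with and without LPS (log2, SE, limma adjusted p = 0.0347). Genes with any signal numbered 30950 to 31961 in PINT shRNA1+LPS, 30725 to 31159 in PINT shRNA1, 27078 to 27425 in LPS and 27536 to 28430 in control libraries. Their part in the JUN, FOSL2 and FOS differences was not tested.

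Partners and regulators of AP-1 were read from 6 lists chosen with earlier results of these data known. Their counts are to be read against the shares called over all genes, which were 2.76% in LPS against control, 0.186% in PINT shRNA1+LPS against PINT shRNA1, 27.3% in PINT shRNA1 against control and 29.2% in PINT shRNA1+LPS against LPS. Other basic leucine zipper genes that can pair with or compete with AP-1 gave, of 23 tested, 0 higher and 1 lower in LPS against control and 0 called in PINT shRNA1+LPS against PINT shRNA1. In PINT shRNA1 against control 3 were higher and 6 lower, with a median log2 fold change of -0.14 against 0.06 over all genes. In PINT shRNA1+LPS against LPS 3 were higher and 4 lower, with a median of -0.02 against 0.05. Over all genes more calls were higher than lower, with 2913 and 1780 in the first comparison and 3039 and 1994 in the second. This difference in direction was not tested. BACH1, a repressor at antioxidant genes, fell by 0.63 in PINT shRNA1 against control and CEBPG, a partner of other C/EBP proteins, by 0.38 on the log2 scale.

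The kinase list holds MAP kinases and the kinases above and below them, which phosphorylate JUN and act on FOS. Of 29 tested, 1 was higher with LPS in wild-type cells and 0 were called with LPS in cells with the hairpin. In PINT shRNA1 against control 4 were higher and 5 lower, and in PINT shRNA1+LPS against LPS 4 were higher and 6 lower. Counted without regard to direction, these are near the shares called over all genes, where more calls were higher than lower. RPS6KA3, which encodes the kinase RSK2, fell by 1.37 ± 0.07 in PINT shRNA1 against control and fell by 1.45 ± 0.07 in PINT shRNA1+LPS against LPS (log2, SE, limma adjusted p = 6.26e-07 and 3.65e-07). MAP3K2 rose by 0.39 ± 0.05 in PINT shRNA1 against control (log2, SE, limma adjusted p = 0.000242). MAP3K1 was the kinase higher with LPS in wild-type cells, by 0.24 ± 0.04 (log2, SE, limma adjusted p = 0.0158). Its call was lost without the second control library (limma adjusted p = 0.0587), without the second LPS library (0.0533) and in a fit of only the groups compared (0.172). The MAP kinase phosphatases, which switch MAP kinases off, had 5 of 10 lower in PINT shRNA1 against control and 3 of 10 lower in PINT shRNA1+LPS against LPS, with 0 higher in either. DUSP4 fell by 0.70 ± 0.06 and by 0.82 ± 0.06 in these comparisons, and DUSP7 by 0.63 ± 0.06 and by 0.59 ± 0.06 (log2, SE). With LPS in wild-type cells 1 phosphatase was higher and 1 lower of the 10, and with LPS in cells with the hairpin 0 were called by limma. DUSP5, which is induced by ERK signalling and acts on it, rose with LPS in wild-type cells by 0.42 ± 0.04 (log2, SE, limma adjusted p = 0.000315). DUSP6, which also acts on ERK, fell by 0.19 ± 0.04 (log2, SE, limma adjusted p = 0.0267), a call that was lost without the second control library (0.0787), the third control library (0.0751) or the first, the second or the third LPS library (0.0552, 0.0794 and 0.0668). The DUSP6 call also ended after median scaling (limma adjusted p = 0.127), with no intensity trend (0.0765), with a replicate block (0.0662) and in a fit of only the groups compared (0.199).

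The serum response factor list covers the factors that act on the FOS promoter and other immediate-early genes. Of 11 tested, 1 was higher and 1 lower in LPS against control, and 3 were higher and 1 lower in each hairpin comparison. EGR1, an immediate-early factor, was at 18.4 FPKM in LPS against 26.4 FPKM in control libraries on average, and fell by 0.51 ± 0.04 (log2, SE, limma adjusted p = 8e-05). IER3, another early gene, rose by 0.26 ± 0.04 in the same comparison (log2, SE, limma adjusted p = 0.00599). EGR1 also fell by 0.48 ± 0.04 in PINT shRNA1 against control (log2, SE, limma adjusted p = 2.18e-05). Its interaction of 0.43 ± 0.06 was called (log2, SE, limma adjusted p = 0.0178), but not without any 1 of 8 single libraries, namely the first or the second control library (0.0574 and 0.0579), the third LPS library (0.0527), the first or the second PINT shRNA1 library (0.0665 and 0.0507) or any 1 of the PINT shRNA1+LPS libraries (in order, 0.0724, 0.067 and 0.0629). The interaction call also ended with no intensity trend (limma adjusted p = 0.0531) and with a replicate block (0.0909). SRF and ELK3, the factor itself and an ETS partner of it, rose with the hairpin without LPS, by 0.34 ± 0.06 and by 0.43 ± 0.05 (log2, SE, limma adjusted p = 0.00275 and 0.000123). The list on turnover of FOS and JUN products had, of 14 tested, 2 higher and 3 lower in each hairpin comparison. ZFP36L1, which binds AU-rich elements and promotes mRNA decay, fell with the hairpin by 0.48 ± 0.03 without LPS and by 0.44 ± 0.03 with LPS (log2, SE). TRIB2, on the same list, rose by 0.42 and by 0.67 in these comparisons (log2, limma adjusted p = 0.00316 and 0.000157).

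Genes long described as AP-1 targets were the list with the most calls for LPS. Of 29 tested of 40, 8 were higher and 1 lower in LPS against control, with a median of 0.13 on the log2 scale against -0.04 over all genes. In PINT shRNA1+LPS against PINT shRNA1, 4 were higher and 0 lower, with a median of 0.11 against -0.04. CCL2, a monocyte chemokine that NF-kB also drives, averaged 32.0 ± 1.299 FPKM in PINT shRNA1+LPS and 18.3 ± 0.937 FPKM in PINT shRNA1 libraries (SD, n = 3 each), and 60.8 ± 1.33 FPKM in LPS and 17.8 ± 1.69 FPKM in control libraries (SD, n = 3 each). Its rise with LPS was smaller with the hairpin, with an interaction of -0.96 ± 0.09 (log2, SE, limma adjusted p = 0.00227). PLAU, the urokinase protease, rose with LPS in wild-type cells by 1.22 ± 0.11 (log2, SE, limma adjusted p = 0.000157).

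The hairpin comparisons split the target list in both directions. There were 11 higher and 6 lower in PINT shRNA1 against control, and 9 higher and 9 lower in PINT shRNA1+LPS against LPS. MMP9, a gelatinase, averaged 10.4 FPKM in PINT shRNA1 against 0.769 FPKM in control libraries, and rose by 3.09 ± 0.09 (log2, SE, limma adjusted p = 8.8e-09). CCND1, the cyclin of early G1, fell by 0.84 ± 0.02 in the same comparison (log2, SE). No activity of AP-1 protein was measured, and several of these targets are driven by other factors too.

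**Figure D4:**
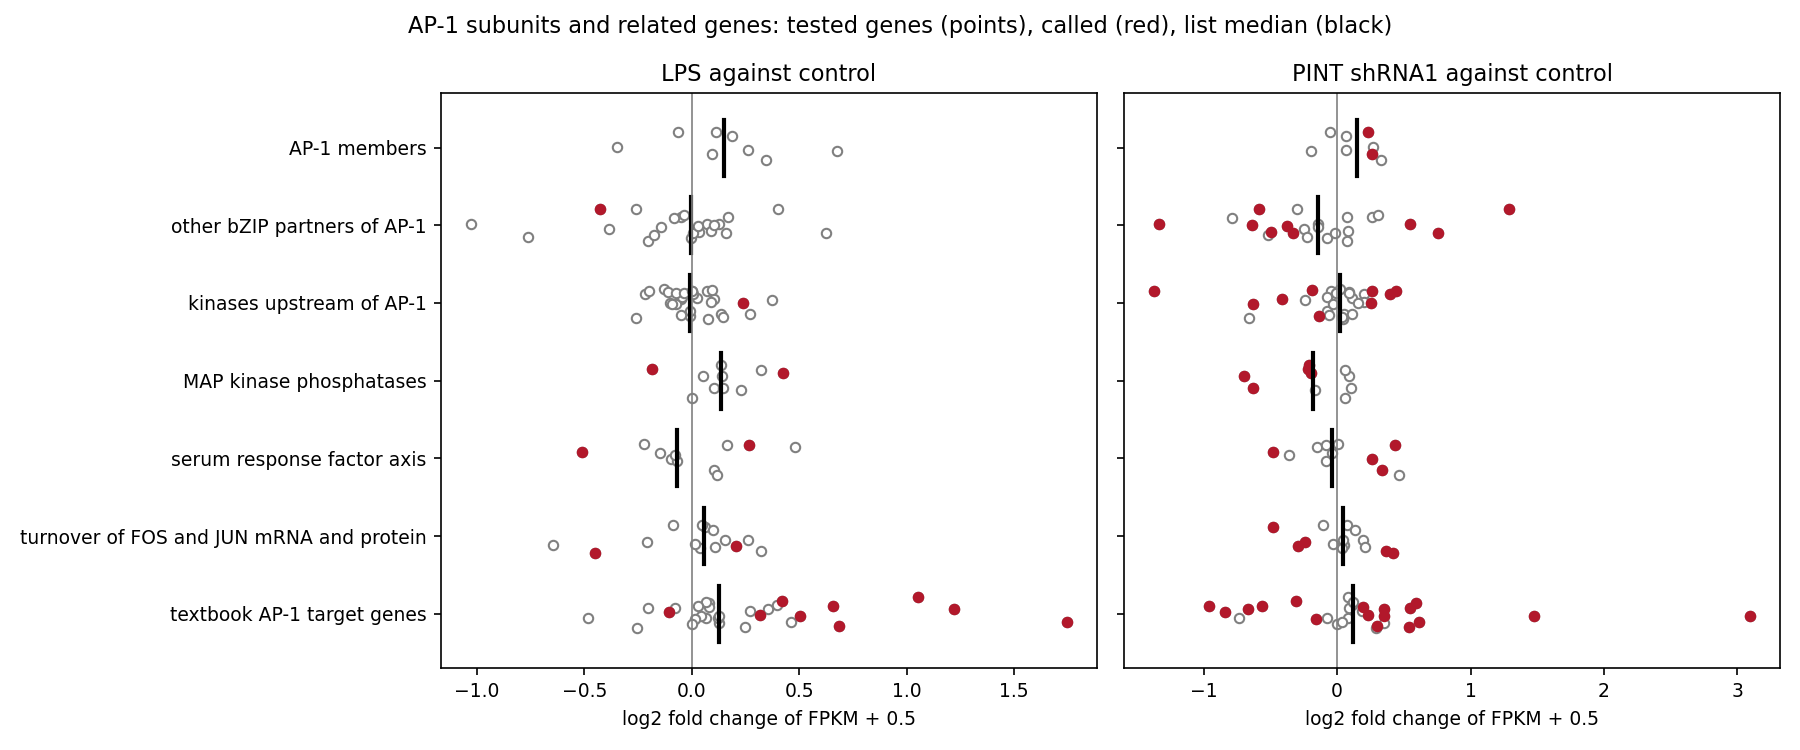
Log2 fold change of FPKM + 0.5 for the tested genes of the AP-1 members and of 6 related lists, in LPS against control and in PINT shRNA1 against control; points are genes, filled red where called (limma, adjusted p under 0.05), and black bars are list medians. The AP-1 target list has the most calls for LPS, 8 higher and 1 lower of 29, while 0 of the 8 members were called for LPS and 2 for PINT shRNA1.

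The genes whose profile over the 12 libraries was most like that of each member were ranked by Pearson correlation of log2(FPKM + 0.5). The ranking was among 12607 other tested genes that averaged 1 FPKM or more, leaving out genes named only after a sequenced clone. The libraries fall into the same 4 groups for every gene, so these values include group differences and are given as descriptions. Most like JUN were INSIG2 (0.965), TUBA1C (0.962) and SMARCA4 (0.959), and most like FOSL2 were CMTM8 (0.957), C1RL-AS1 (0.954) and EGLN3 (0.952). Most like FOS were MC1R (0.942), FXYD5 (0.917) and AARSD1 (0.914), and most like FOSB were MAPK6 (0.948), MGST1 (0.887) and MRPS30 (0.887). Most like JUNB were FJX1 (0.934), ATAD3A (0.909) and SEMA7A (0.9), and most like JUND were CCDC94 (0.905), DLGAP4 (0.891) and PPRC1 (0.881). Most like ATF3 were IQSEC1 (0.923), SGCB (0.87) and PLCD4 (0.868). FOSL1 had the weakest best match, SESTD1 at 0.858, followed by CCNT2 (0.843) and PRKX (0.826), and no member was among the nearest 3 of another.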

How the data were processed

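The RNA sequencing data analysed were 12 libraries of SW480 cells, grouped by the labels as 4 groups of 3. The authors deposited FPKM per Ensembl gene, used as given. The GRCh37/hg19 build and the tools StringTie 1.3.4d, HISAT2 2.1.0 and fastp are named, without roles, per the submitters' processing notes; a strand setting is not given in the sources used here. The labels list 6 samples of PINT shRNA1, 2 for each RNA number, while the table has 1 column for each number; whether a column holds 1 of the 2 or both is not recorded. Another 6 columns were not used.

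Values were analysed as log2(FPKM + 0.5), and fold changes are on this scale, which understates changes of low genes such as FOSB. Of 57905 genes, 17214 reached 0.5 FPKM in 3 or more libraries and were tested with limma 3.58.1 in R 4.3.3, in 1 group-means fit of all 12 libraries with an intensity trend, two-sided, and p-values were adjusted by Benjamini-Hochberg over the genes tested in each comparison. Calls are at an adjusted p under 0.05. Absolute depth is unknown from FPKM, so no counting error can be given; relative depth was taken from the steps of low values. The script was tested on simulated data.

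The members and lists were chosen with earlier results of these data known. Named are the 8 members, LINC-PINT, at most 3 called genes with the smallest p per list and comparison, and the 3 genes most like each member; CD68, DCN and PTPRC stand for their marker lists, and HOOK2 is named for its overlap with JUNB. PECAM1 is not analysed here. Values of a few genes under this rule are left out. Overlapping genes came from GENCODE 29 and promoters from RefSeq, both on GRCh38, another build than that of the files, so only names and sequences were used. FOSB overlaps ERCC1 on the opposite strand, and FOSL2 overlaps FLJ31356 on the opposite strand and AC104695.3 on the same strand in an intron. The other settings tried were quantile normalization, median scaling, rescaling to 1 total, a pseudocount of 1 or of 0.1, a stricter filter (1 FPKM) or none, moderation that was robust or had no intensity trend, a replicate block, a fit of only the groups compared, and leaving out each library.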

Additional observations from a re-analysis of the deposited data

How the results depend on the processing

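Of 1264 values for the 8 members under the alternatives, 1205 kept direction and side of the threshold, 27 changed sign without being called, 18 lost a call, 14 gained one and 0 called values reversed. The sign changes fell on 14 comparisons of single members whose reported log2 fold changes were at most 0.19 in size, such as ATF3 in PINT shRNA1 against control. The calls of FOSL2 and JUN in PINT shRNA1+LPS against LPS held in every alternative run. That of JUNB for LPS averaged over hairpin states also held, but narrowly, with limma adjusted p of up to 0.0491. The FOSL2 call in PINT shRNA1 against control ended in 7 of 23, that of JUN in 4 and that of FOS in PINT shRNA1+LPS against LPS in 7. The count of members called in PINT shRNA1 against control was 1 after median scaling, 1 after quantile normalization and 1 with no filter, and ranged from 0 to 3 with each library left out. For LPS against control it was 1 in a fit of only the groups compared, and 0 to 1 with each library left out. For LPS averaged over hairpin states it was 3 after median scaling and 1 to 2 with each library left out. Counts over all genes moved too. For LPS against control there were 311 calls with the replicate block, 127 in a fit of only the groups compared and 293 to 412 with each library left out, against 475. For PINT shRNA1+LPS against PINT shRNA1 there were 59 after median scaling, 57 after quantile normalization, 18 without the intensity trend, 17 with the replicate block and 19 to 40 with each library left out, against 32. The interaction had 14 calls with the replicate block, against 22, and LPS averaged over hairpin states 317 to 452 with each library left out, against 513. The cause was not tested.

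No sign was seen that the replicate numbers pair the libraries. Same-numbered libraries of different groups had correlations of their deviations between -0.0351 and 0.0569, and 5 of 12 libraries correlated best with their own number. With 3 libraries in a group, this check cannot exclude pairing. With the replicate block FOS was not called in PINT shRNA1+LPS against LPS (limma adjusted p = 0.0529). The interaction and the averaged comparisons have no fit of only the groups compared.

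Scaling moved the balance of calls over all genes. In LPS against control 271 were higher and 204 lower, against 440 and 116 after median scaling. In PINT shRNA1 against control 2913 were higher and 1780 lower, against 2215 and 2151 after median scaling; in PINT shRNA1+LPS against LPS 3039 were higher and 1994 lower, against 2349 and 2530. Among the other genes named, 69 of 1968 values lost a call and 0 reversed. EGR1 (LPS against control), CCL2, MMP9, RPS6KA3 and DUSP4 lost none. PLAU for LPS in cells with the hairpin had an adjusted p of up to 0.118 (limma).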
